A study of Mus musculus with 24 samples.

Results

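The skeletal muscle contractile genes are 38 protein-coding genes of the sarcomere, the calcium release apparatus and the energy supply of the muscle fibre. They were taken by symbol from a list, out of 22609 genes counted in each of 24 mouse RNA sequencing libraries. A gene was described in a tissue where it had 10 or more counts in 3 or more libraries of that tissue. All 38 met this in hind paw punch biopsies and in dorsal root ganglia (DRG), and 34 met it in lumbar spinal cord, where Myh2, Myl2, Myl3 and Tnnt1 did not. Of the 38, 14 are isoforms of fast fibres, 6 are isoforms of slow fibres and 18 are used by both or are not clear markers of either.

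The animals were male C57 mice aged 8 to 12 weeks that received 10 µg of antibody per injection into the sole of the hind paw. Control animals received IgG and were sampled 1 day later. The agonist groups received an antibody that activates LTβR, the lymphotoxin beta receptor. They were sampled 24 hours after 1 injection (day 1), or after 2 injections at the later time point (day 6). Whether the 6 days run from the first injection (titles) or from the end of dosing (series text) is worded differently by the submitters. Paw and DRG (levels L3 to L5, injected side) had 3 libraries in each of control, day 1 and day 6, and spinal cord had 3 libraries at day 1 and 3 at day 6. IgG control libraries of the cord were not analysed here. No group carried a transgene or a deletion by the labels, and p-values describe only the spread among libraries, since separate animals are not stated.

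A muscle fibre is filled with sarcomeres, in which myosin heavy chains pull on filaments of actin, troponin and tropomyosin when calcium is released. Fibres differ in speed because they choose among isoforms: Myh7 marks slow (type I) fibres, and Myh2, Myh1 and Myh4 mark the fast types IIa, IIx and IIb, with light chains and troponins of matching type. Limb muscles of mice are mostly fast. The sole of the foot holds small intrinsic muscles beneath the skin, and the ganglia lie against the deep muscles of the back, so muscle lies next to both.

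Reads counted in genes numbered 24.2 to 41.0 in units of 1e6 per paw library, 21.6 to 34.2 per DRG library and 15.7 to 26.3 per cord library. In CPM (counts per 1e6 of these totals), 3 counts correspond to 0.0731 to 0.191. The tissues carried their own markers: 9 keratinocyte genes summed to between 50739 and 89164 CPM in paw, 10 sensory neuron genes to between 3912 and 4913 CPM in DRG, and 6 genes of cord glia to between 10203 and 12646 CPM in cord. The first DRG control library stood apart in that 31.5% of its reads fell outside genes, against a minimum of 13.1% among DRG libraries. It was also the library with the least muscle signal of its tissue, and the part of the former in the latter was not tested. Among replicate pairs of the same group, 0 of 24 held identical values.

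The fast heavy chain genes are close copies of each other, and reads of 50 bases can be told apart only where the sequences differ. The first 60 coding bases show this, with bases that differ from Myh4 in capitals:
Myh4 start: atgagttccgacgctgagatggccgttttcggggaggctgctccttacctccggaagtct
Myh1 start: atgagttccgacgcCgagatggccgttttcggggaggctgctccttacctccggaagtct
Myh2 start: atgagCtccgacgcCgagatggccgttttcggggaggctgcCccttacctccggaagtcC
Myh7 start: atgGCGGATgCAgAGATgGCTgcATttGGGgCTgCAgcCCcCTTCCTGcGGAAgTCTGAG
The last 60 coding bases before the stop codon follow:
Myh4 end: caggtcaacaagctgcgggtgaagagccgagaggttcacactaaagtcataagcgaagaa
Myh1 end: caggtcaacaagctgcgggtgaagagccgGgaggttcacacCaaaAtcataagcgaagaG
Myh2 end: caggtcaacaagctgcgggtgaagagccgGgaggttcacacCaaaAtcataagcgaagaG
Myh7 end: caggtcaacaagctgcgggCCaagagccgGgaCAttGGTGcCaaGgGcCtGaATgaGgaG
In the first stretch Myh1 differed from Myh4 at 1 base, Myh2 at 4 and Myh7 at 43, all compared position by position without gaps. In the last stretch the differences were 4, 4 and 18. Over whole transcripts of the GENCODE M21 annotation (GRCm38), 26.7% of the 50-base windows of Myh1, 26.9% of Myh2 and 18.9% of Myh4 also occurred in another gene, mostly another fast heavy chain. For Myh7 the share was 22.2%, nearly all of it shared with the cardiac chain Myh6, and for Myl1 it was 23.4%, shared with a pseudogene. Reads from such windows may be left out or split by the authors' counting, so the levels of these 5 genes are less certain than those of the troponins Tnnt3, Tnni2, Tnnc2, Tnnt1, Tnni1 and Tnnc1, for which 0 windows were shared.

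Counts in the members were present in all 3 tissues, and in paw and DRG their share differed widely between libraries of the same tissue. The 38 genes together took 0.0495%, 4.26% and 3.78% of counts in the 3 paw control libraries, 6.45%, 5.22% and 2.38% at day 1, and 3.72%, 0.972% and 1.83% at day 6. In DRG the shares were 0.0164%, 0.667% and 0.789% in control, 0.933%, 0.0677% and 0.0175% at day 1, and 0.0473%, 0.0182% and 0.0854% at day 6. In cord they were 0.0901%, 0.0666% and 0.0639% at day 1 and 0.0561%, 0.115% and 0.199% at day 6. Pygm and Pvalb, which cells other than muscle also make, had 5000 and 1874 of the 12184 counts in cord day 6 #1. In cord day 6 #3 they had 4012 and 2090 of 31196, so the cord share cannot be read as muscle alone. The largest share exceeded the smallest by 130-fold in paw, 56.9-fold in DRG and 3.55-fold in cord. At these depths counting error is small by comparison: the 95% Wilson interval was 0.0159% to 0.0170% for the lowest DRG library and 6.45% to 6.46% for the highest paw library, and such intervals cover counting error only.

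**Figure D1:**
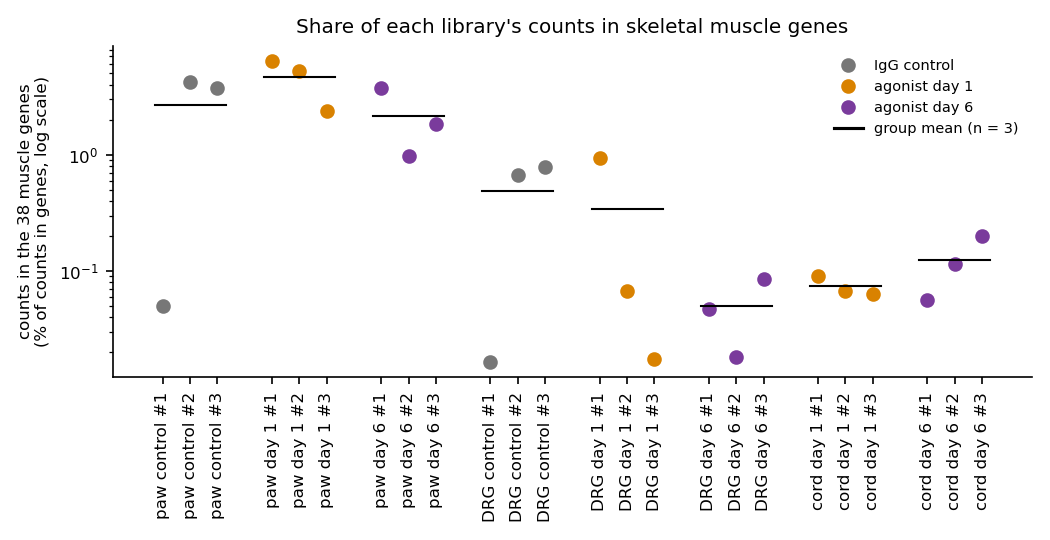
Share of counts in the 38 muscle genes in each library (vertical axis, % of counts in genes, log scale), with libraries along the horizontal axis and points coloured by treatment; black lines are group means (n = 3). Paw control #1 sits at 0.0495%, below all 6 cord libraries, while 3 DRG libraries reach 0.667% to 0.933%. The cord values include Pygm and Pvalb (5000 and 1874 of 12184 counts in cord day 6 #1) and are not muscle alone.

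Biopsies and ganglia differed in how the muscle was spread over libraries. In paw, 8 of 9 libraries held between 0.972% and 6.45%, and the first control library alone lay below. In DRG, control #2, control #3 and day 1 #1 held 0.667% to 0.933%, and the other 6 held 0.0164% to 0.0854%. The highest DRG library thus lay just under the second lowest paw library. Group means followed these single libraries: in paw they were 2.69% ± 2.30 (SD, n = 3) in control, 4.69% ± 2.09 at day 1 and 2.17% ± 1.40 at day 6. In DRG they were 0.491% ± 0.415, 0.339% ± 0.515 and 0.0503% ± 0.0337, and in cord 0.0735% ± 0.0144 at day 1 and 0.1234% ± 0.0717 at day 6. Without the first DRG day 1 library, the day 1 mean was 0.0426%, and without the first paw control library the paw control mean was 4.02%. The groups of each tissue overlapped. Fewer fibres in a sample and less muscle RNA per fibre cannot be told apart in such bulk libraries.

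Acta1 encodes the actin of the thin filament of skeletal muscle and had the highest median level per kilobase of exon over the paw libraries. In paw it measured 29.5, 4215 and 3883 CPM in control, 7811, 5643 and 2511 CPM at day 1 and 4030.5, 833 and 1515 CPM at day 6. In DRG it measured 4.41, 990.5 and 1141 CPM in control, 1275, 77.0 and 8.30 CPM at day 1 and 54.5, 6.39 and 94.1 CPM at day 6, and in cord 70.2, 34.8 and 29.1 CPM at day 1 and 24.1, 82.4 and 316 CPM at day 6. The low paw library and the 3 high DRG libraries were those of the summed share, and in both tissues the groups overlapped. Ckm, the creatine kinase that regenerates ATP at the sarcomere, measured 17.6, 2075 and 1869 CPM in control, 2488, 2450.4 and 1096 CPM at day 1 and 1682, 516 and 1093 CPM at day 6 in paw. Its DRG values were 1.76, 552 and 589.7 CPM in control, 823, 40.4 and 4.44 CPM at day 1 and 30.6, 2.36 and 54.5 CPM at day 6, and its cord values 48.7, 23.0 and 18.5 CPM at day 1 and 15.2, 62.3 and 167 CPM at day 6. Ckm followed the same libraries as Acta1 in all 3 tissues.

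Members shared their extreme libraries, in paw nearly without exception. Paw control #1 was the lowest paw library for 38 of 38 members, and paw day 1 #1 was the highest for 34. In DRG, day 1 #1 was the highest library for 23 members, and in cord, day 6 #3 was the highest for 29 of 34. The highest library exceeded the lowest by a median of 169-fold over the members in paw, 97.8-fold in DRG and 7.88-fold in cord. Over all genes that met the count rule the median was 1.67-fold in paw, 1.28-fold in DRG and 1.29-fold in cord, and 12.2%, 4.52% and 3.82% of those genes reached 4-fold. In paw, all 38 members exceeded 4-fold, the narrowest being Tpm2, a tropomyosin that is also made by smooth muscle, which ranged from 144 CPM to 2360.0 CPM. Myl3 had 0 counts in paw control #1, which allows up to 0.115 CPM, and Myl2 had 1 count there.

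**Figure D2:**
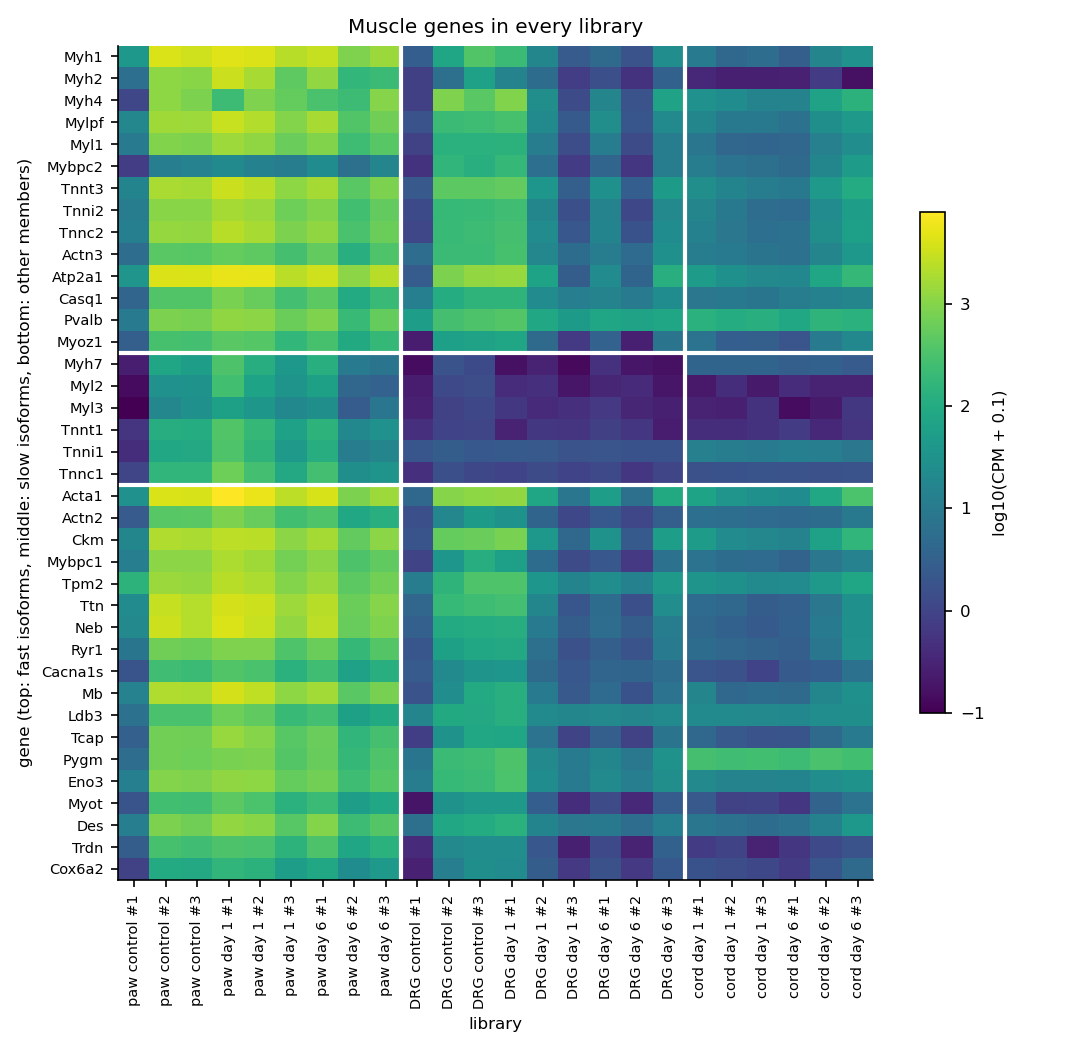
Level of each member in each library, as log10 of CPM + 0.1 (colour), with genes in rows (fast isoforms above, slow isoforms in the middle, other members below) and libraries in columns, separated by tissue. Paw control #1 is dark throughout; in DRG the 3 bright columns (control #2, control #3, day 1 #1) are bright for fast and shared genes, while the slow rows stay dark in all 9 columns.

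Within a tissue the treatment comparisons asked whether the agonist changed these genes, and no member passed the test in any of the 7 comparisons. The test was edgeR's quasi-likelihood F test with Benjamini-Hochberg adjustment over all genes. In paw, day 1 against control called 0 of 38 members (0.00654% of all genes tested were called), day 6 against control 0 (0.706%) and day 6 against day 1 0 (1.03%). In DRG, 0 of 38 were called at day 1 against control (0.168%), at day 6 against control (0%) and at day 6 against day 1 (0.103%). In cord, 0 of 34 members tested were called at day 6 against day 1 (0%). At an unadjusted p under 0.05 edgeR had 0, 0 and 0 members in the paw comparisons, 2, 2 and 0 in DRG and 2 in cord. DESeq2 and limma voom also called 0 in all 7, although DESeq2 gave no adjusted p for 5 members in each DRG comparison and had 20 members at an unadjusted p under 0.05 for DRG day 6 against control, beside 3.54% of all genes.

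Over the members the median log2 fold change was 0.88 for paw day 1 against control and -1.17 for paw day 6 against day 1, beside medians of 0.01 and -0.01 over all genes. In DRG it was -3.31 at day 6 against control, beside 0.000112 over all genes, and in cord 1.18 at day 6 against day 1. Acta1 differed by 0.98 ± 1.35 (SE) in paw at day 1 against control (adjusted p = 0.751, edgeR), -0.40 ± 1.34 at day 6 against control (0.977) and -1.37 ± 1.37 at day 6 against day 1 (0.676). In DRG its estimates were -0.66 ± 2.13 at day 1 (adjusted p = 0.984, edgeR), -3.80 ± 2.38 at day 6 (0.995) and -3.14 ± 2.31 between the days (0.830), and in cord 1.63 ± 1.03 (0.621). None of these passed the test. The medians over the members depended on single libraries. For paw day 1 against control the median ranged from 0.34 (without paw control #1) to 1.33 (without paw control #2) when 1 library was left out. For paw day 6 against control the median of -0.31 ranged from -0.94 (without paw day 6 #1) to 0.15 (without paw control #2), and was also above 0 without paw control #3 (0.09) and without paw day 6 #2 (0.085). For paw day 6 against day 1 it ranged from -1.83 to -0.80. In DRG it ranged from -3.39 (without DRG day 1 #1) to -0.01 for day 1 against control, from -3.94 to -2.46 for day 6 against control, and from -3.26 to 0.09 (without DRG day 1 #1) for day 6 against day 1. In cord it ranged from 0.39 (without cord day 6 #3) to 1.69.

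Fast and slow isoforms of the troponin inhibitory subunit give the same contrast by fibre type. Tnni2, the fast form, had estimates of 0.83 ± 1.24, -0.34 ± 1.23 and -1.17 ± 1.25 on the log2 scale in the 3 paw comparisons in the order above, with adjusted p of 0.768, 0.980 and 0.693 (edgeR). Tnni1, the slow form, had estimates of 1.65 ± 1.57, -0.35 ± 1.54 and -2.00 ± 1.59, with adjusted p of 0.657, 0.986 and 0.601 (edgeR). In DRG, Tnni2 had estimates of -0.57 ± 1.95, -3.43 ± 2.18 and -2.86 ± 2.14, and Tnni1 of -0.11 ± 0.20, -0.41 ± 0.20 and -0.30 ± 0.20, none with an adjusted p under 0.808 (edgeR). In cord, Tnni2 had 1.36 ± 0.95 and Tnni1 -0.07 ± 0.16 at day 6 against day 1 (adjusted p = 0.640 and 0.883, edgeR). The slow form thus had a small error in DRG and cord, where its level hardly varied, and a large error in paw. By list, the medians in paw at day 1 were 0.85 for the 14 fast members and 1.64 for the 6 slow ones, and in DRG at day 6 against control -3.51 and -0.93.

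The change against control was also compared between paw and DRG. For day 1, 0 of 38 members were called (0% of all genes), with a median difference of 1.45, and for day 6, 0 of 38 (0.498%), with a median of 3.00 (edgeR interaction term). All 38 estimates were positive in both, and the 2 differences share the control libraries, so they are not independent. At an unadjusted p under 0.05 edgeR had 0 members in each, DESeq2 had 2 and 1, and voom had 0 and 0, with 0 called by either. For Acta1 the day 6 difference was 3.40 ± 2.59 (adjusted p = 0.871, edgeR), for Tnni2 3.09 ± 2.46 (0.882) and for Tnni1 0.06 ± 1.78 (1.00).

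The myosin heavy chains were present in unlike proportions in the 3 tissues. Myh1, the chain of type IIx fibres, measured 40.1, 4127 and 3424 CPM in paw control, 4485, 4298 and 2299 CPM at day 1 and 2927, 903 and 1426 CPM at day 6. In DRG it measured 2.74, 74.3 and 372 CPM in control, 214, 17.4 and 2.41 CPM at day 1 and 4.91, 1.70 and 24.6 CPM at day 6, and in cord 10.7, 4.47 and 5.49 CPM at day 1 and 2.99, 16.8 and 29.5 CPM at day 6. Myh4, the chain of the fastest, type IIb fibres, measured 0.994, 1164 and 848 CPM in control, 227, 894 and 543 CPM at day 1 and 311, 227 and 996 CPM at day 6 in paw. In 3 DRG libraries it reached or passed the levels of several paw libraries: its DRG values were 0.742, 881 and 429.7 CPM in control, 941, 26.4 and 1.25 CPM at day 1 and 16.8, 1.67 and 65.5 CPM at day 6. In cord Myh4 measured 30.4, 23.4 and 15.2 CPM at day 1 and 15.2, 67.0 and 140.4 CPM at day 6 and was above Myh1 in all 6 libraries.

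Myh2, the chain of type IIa fibres, which are fast but oxidative, measured 5.96, 1150.4 and 1042 CPM in control, 3177, 1793 and 485 CPM at day 1 and 1250.4, 175 and 215 CPM at day 6 in paw. In DRG it measured 0.742, 6.22 and 64.4 CPM in control, 15.4, 5.16 and 0.678 CPM at day 1 and 1.49, 0.426 and 3.24 CPM at day 6, and in cord it stayed at or below 0.652 CPM. Myh7, the slow chain, which is also that of the ventricle of the heart, measured 0.153, 75.4 and 54.0 CPM in control, 330.1, 111 and 40.6 CPM at day 1 and 124, 10.5 and 7.38 CPM at day 6 in paw. Its DRG values were 0.0464, 1.70 and 1.16 CPM in control, 0.0653, 0.212 and 0.0339 CPM at day 1 and 0.409, 0.0983 and 0.0655 CPM at day 6, that is between 1 and 47 counts. In cord Myh7 was steady, with 3.69, 3.65 and 3.65 CPM at day 1 and 2.95, 3.18 and 2.42 CPM at day 6, above all 9 DRG libraries. In DRG the slow chain was highest in control #2 and control #3, but in day 1 #1, the library with the most Myh4, it had 2 counts.

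As a share of the counts in these 4 chains, Myh1 led in every paw library, with 53.9% to 84.9% and a median of 63.4%. Myh2 followed with a median of 17.7% and Myh4 with 15.8%, and Myh7 made up 0.279% to 4.02%. In DRG the order of the medians was another: Myh4 had a median of 53.8% (17.4% to 91.5%), Myh1 35.3% (7.71% to 64.1%) and Myh2 7.42% (0.646% to 17.4%). In cord Myh4 took 62.0% to 81.5%, Myh1 14.01% to 23.7%, Myh7 1.41% to 14.9% and Myh2 at most 0.862%. The 3 DRG libraries rich in muscle differed among themselves: Myh4 was far above Myh1 in control #2 (881 against 74.3 CPM), above it in day 1 #1 (941 against 214 CPM) and close to it in control #3 (429.7 against 372 CPM). The shares of the DRG libraries with little muscle rest on few counts, 92 in control #1.

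**Figure D3:**
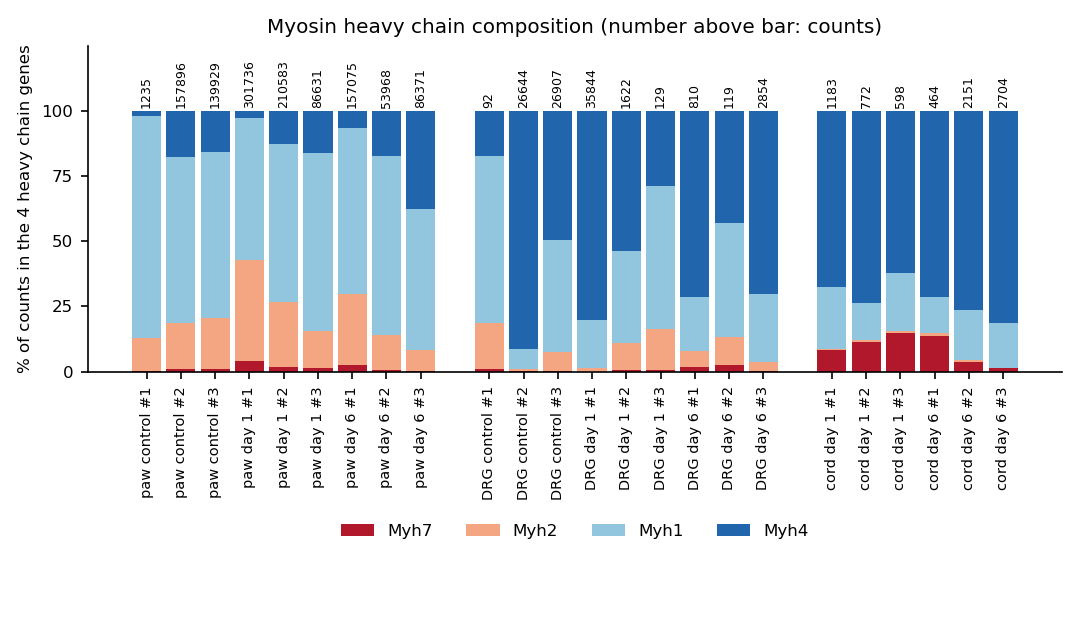
Share of each myosin heavy chain gene (colours, stacked to 100%) in the counts of Myh1, Myh2, Myh4 and Myh7, for each library along the horizontal axis; the number above a bar is the counts it rests on. Light blue Myh1 fills most of each paw bar, dark blue Myh4 is the largest part in 6 of 9 DRG bars and in all 6 cord bars, and Myh7 is visible mainly in cord (1.41% to 14.9%).

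A single ratio of slow to fast chain was tested between paw and DRG. The log2 ratio of Myh7 counts to the summed Myh1, Myh2 and Myh4 counts (0.5 added to both) averaged -6.52 ± 1.25 (SD, n = 9) in paw and -8.17 ± 2.79 (n = 9) in DRG. The difference of 1.66 did not exceed the spread (2-sided exact permutation test, p = 0.120, smallest attainable 4.11e-05). Permuting within treatment groups gave p = 0.146 (2-sided exact permutation test). Against Myh4 alone as the fast chain, the difference was 3.92 with p = 0.00658 (2-sided exact permutation test), so the choice of fast chain changed the call. With 5 added in place of 0.5 it was 0.74. Without DRG day 1 #1, where Myh7 had 2 counts, the difference was 0.95. In DRG control #1, day 1 #3 and day 6 #2, Myh7 had 1, 1 and 3 counts over 91, 128 and 116 fast counts. A much lower ratio could not be measured in these libraries, so the test had little room to show a difference there.

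The light chains and troponins sit beside the heavy chains, the former at the myosin neck and the latter on the thin filament, where they make contraction depend on calcium. The fast regulatory light chain Mylpf measured 18.2, 1577 and 1492 CPM in control, 3073, 2112 and 962 CPM at day 1 and 1816, 373 and 679 CPM at day 6 in paw. Its slow and ventricular counterpart Myl2 measured 0.0382, 29.8 and 31.6 CPM in control, 259, 68.0 and 33.9 CPM at day 1 and 61.6, 3.95 and 3.34 CPM at day 6. In DRG Mylpf measured 1.72, 220.3 and 237 CPM in control, 295, 20.8 and 2.37 CPM at day 1 and 26.0, 1.97 and 20.7 CPM at day 6, whereas Myl2 lay between 0.0983 and 1.35 CPM. In cord Mylpf measured 17.9, 9.56 and 9.55 CPM at day 1 and 6.91, 26.7 and 43.8 CPM at day 6, and Myl2 had at most 8 counts. Both regulatory chains followed the muscle share in paw, and in DRG Mylpf spanned a far wider range than Myl2.
The fast essential light chain Myl1 measured 10.1, 944 and 842 CPM in control, 1533, 1230.0 and 586 CPM at day 1 and 932, 240.4 and 427 CPM at day 6 in paw. The slow Myl3 measured 0, 18.6 and 28.7 CPM in control, 60.2, 38.3 and 18.9 CPM at day 1 and 26.8, 2.53 and 8.05 CPM at day 6. In DRG Myl1 measured 0.835, 136 and 136 CPM in control, 140.2, 11.9 and 1.36 CPM at day 1 and 11.2, 1.21 and 11.9 CPM at day 6. In cord it measured 8.37, 4.06 and 3.90 CPM at day 1 and 4.005, 13.6 and 24.5 CPM at day 6, while Myl3 did not exceed 1.03 CPM in either. The essential chains thus repeated the picture of the regulatory ones.

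Troponin has 3 subunits, and each exists in a fast and a slow form. The tropomyosin-binding fast form Tnnt3 measured 16.2, 1884 and 1705 CPM in control, 3134, 2423 and 1150.1 CPM at day 1 and 1730.4, 442 and 856 CPM at day 6 in paw. In DRG Tnnt3 measured 2.18, 449.8 and 457 CPM in control, 532, 36.5 and 2.88 CPM at day 1 and 28.4, 2.78 and 46.0 CPM at day 6. In cord it measured 26.6, 15.9 and 11.5 CPM at day 1 and 9.53, 41.5 and 103 CPM at day 6. Its slow form Tnnt1 measured 0.459, 109 and 105 CPM in control, 364, 183 and 63.8 CPM at day 1 and 148, 19.2 and 29.2 CPM at day 6 in paw and between 0.131 and 0.967 CPM in DRG. Tnnt1 was highest in paw day 1 #1 and lowest in paw control #1, like its fast form. The inhibitory fast form Tnni2 measured 11.5, 1047 and 1054 CPM in control, 1701, 1405 and 656 CPM at day 1 and 944, 261 and 518 CPM at day 6 in paw. In DRG Tnni2 measured 1.16, 185 and 199.6 CPM in control, 243, 17.5 and 1.49 CPM at day 1 and 15.4, 1.05 and 19.9 CPM at day 6. In cord it measured 16.4, 9.56 and 5.54 CPM at day 1 and 5.02, 22.6 and 55.3 CPM at day 6. The slow form Tnni1 measured 0.344, 83.9 and 90.04 CPM in control, 349.5, 149 and 43.6 CPM at day 1 and 113, 11.9 and 17.1 CPM at day 6 in paw. In DRG it was flat at 1.95, 2.64 and 2.13 CPM in control, 2.35, 2.24 and 1.66 CPM at day 1 and 1.84, 1.64 and 1.64 CPM at day 6, and in cord flat at 13.2, 11.3 and 10.8 CPM at day 1 and 12.8, 12.3 and 8.67 CPM at day 6. Tnni1 in the DRG libraries did not differ between those rich and poor in Tnni2 beyond 1.61-fold. The calcium-binding fast form Tnnc2 measured 12.7, 1323 and 1273 CPM in control, 2296, 1822 and 835 CPM at day 1 and 1227, 313 and 630.1 CPM at day 6 in paw. In DRG Tnnc2 measured 1.02, 205 and 228 CPM in control, 279.7, 22.8 and 2.03 CPM at day 1 and 16.1, 1.64 and 23.4 CPM at day 6. In cord it measured 14.3, 8.70 and 5.95 CPM at day 1 and 6.49, 25.6 and 56.6 CPM at day 6. The slow form Tnnc1 measured 0.956, 165 and 163 CPM in control, 661, 265 and 88.4 CPM at day 1 and 274, 27.0 and 34.0 CPM at day 6 in paw. In DRG it measured 0.371, 1.45 and 1.03 CPM in control, 0.849, 1.24 and 0.847 CPM at day 1 and 1.11, 0.491 and 0.9499 CPM at day 6, and in cord it lay between 1.51 and 1.80 CPM. Tnnc1 varied 3.90-fold over the DRG libraries and 1.197-fold over the cord libraries.

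As a share of the counts in the 14 fast and 6 slow members together, the slow ones made up 1.05% to 6.75% in paw (median 2.50%), 0.0845% to 4.08% in DRG (median 1.32%) and 1.54% to 9.22% in cord (median 5.98%). In paw the share was highest in day 1 #1 (6.75%), the library with the most muscle, and lowest in day 6 #3 (1.05%) and control #1 (1.11%). In DRG it ran the other way: the 3 libraries rich in muscle had 0.222%, 0.180% and 0.0845%, and the 6 poor ones 0.629% to 4.08%. In cord the library with the most muscle, day 6 #3, had the lowest slow share, 1.54%. These opposite orders are descriptions over 9, 9 and 6 libraries, in which numerator and denominator share the depth of the library. In DRG the slow members took 0.000305% to 0.000853% of all counts and the fast ones 0.00812% to 0.510%, so the order there reflects mostly the fast counts. Tnni1, flat in DRG and cord, gave 42 of the 66 slow counts in DRG control #1 and 63 of 167 in DRG day 6 #1. In cord day 6 #3 it gave 136 of 218, and in cord day 6 #1 it gave 277 of 399, with 64 more from Myh7. Among the fast members, Pvalb, which neurons also make, had 1120 counts in DRG control #1 and 1874 in cord day 6 #1. All 38 members had 3539 and 12184 counts there. Where muscle is scarce, these shares are therefore no measure of the fibre types of muscle.

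**Figure D4:**
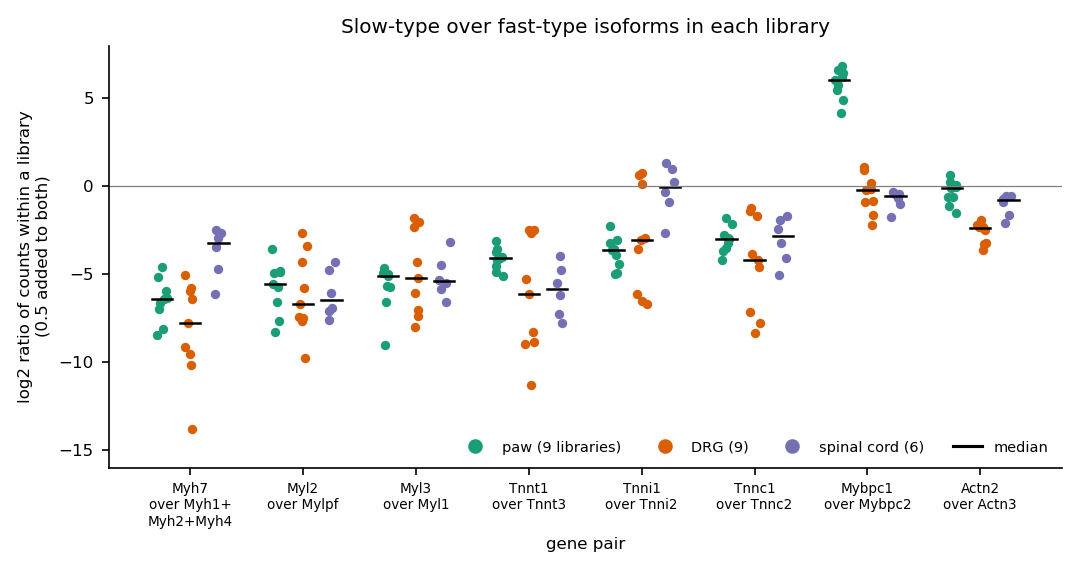
Log2 ratio within each library (vertical axis, counts with 0.5 added to both) for 6 pairs of a slow and a fast gene and for 2 pairs whose first gene, Mybpc1 or Actn2, is not specific to slow fibres (horizontal axis), coloured by tissue, with black bars for medians. Mybpc1 over Mybpc2 and Actn2 over Actn3 separate paw from DRG without overlap, and the other 6 pairs overlap, with a wider scatter in DRG than in paw.

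In each of the 6 pairs with a slow-fibre member, the paw and DRG ranges of the ratio overlapped. The 3 DRG libraries rich in muscle lay below every paw library for Myh7, Tnnt1, Tnni1 and Tnnc1 over their fast forms. Their highest log2 ratios were -9.13, -8.86, -6.12 and -7.13, against paw minima of -8.48, -5.09, -4.99 and -4.21. For the Myl2 and Myl3 pairs this did not hold. DRG libraries poor in muscle rest on few counts, such as Tnnt1 15 over Tnnt3 85 in day 6 #2. This was not tested. In 2 further pairs, whose first gene is counted here among the members of both fibre types, the ratios of paw and DRG libraries did not overlap. Mybpc1 and Mybpc2 are the slow-type and fast-type myosin binding protein C, which tethers myosin to titin, and the slow type is also found in fast fibres. Mybpc1 measured 12.5, 1098 and 1096 CPM in control, 1986, 1593 and 726 CPM at day 1 and 1092, 332 and 506 CPM at day 6 in paw. In DRG Mybpc1 measured 0.928, 36.9 and 112 CPM in control, 57.1, 5.22 and 1.19 CPM at day 1 and 2.04, 0.557 and 6.55 CPM at day 6. In cord it measured 7.27, 5.17 and 5.13 CPM at day 1 and 3.59, 8.56 and 14.9 CPM at day 6. Mybpc2 measured 0.688, 12.4 and 14.7 CPM in control, 20.5, 14.2 and 11.04 CPM at day 1 and 24.3, 6.19 and 16.9 CPM at day 6 in paw. In DRG it measured 0.417, 167 and 123 CPM in control, 179.7, 6.10 and 0.610 CPM at day 1 and 3.88, 0.491 and 11.8 CPM at day 6, and in cord 11.5, 7.10 and 6.44 CPM at day 1 and 4.88, 17.3 and 50.2 CPM at day 6. The 3 DRG libraries rich in muscle thus exceeded every paw library in Mybpc2, while having less Mybpc1 than all paw libraries but control #1. The log2 ratio of Mybpc1 to Mybpc2 lay between 4.15 and 6.81 in paw, between -2.18 and 1.11 in DRG and between -1.75 and -0.33 in cord.
The alpha-actinins anchor thin filaments at the Z-disc, Actn2 in all fibres and Actn3 in fast ones. Actn2 measured 2.48, 426 and 441 CPM in control, 842, 571 and 260.1 CPM at day 1 and 349, 81.6 and 121 CPM at day 6 in paw. Actn3 measured 5.50, 446 and 416 CPM in control, 544, 485 and 278 CPM at day 1 and 525, 122 and 345 CPM at day 6. In DRG Actn2 measured 1.44, 18.04 and 46.7 CPM in control, 31.3, 3.61 and 1.05 CPM at day 1 and 2.13, 0.983 and 2.88 CPM at day 6. In the same libraries Actn3 measured 5.52, 219 and 219 CPM in control, 292, 18.6 and 5.29 CPM at day 1 and 12.0, 4.98 and 28.0 CPM at day 6. The log2 ratio of Actn2 to Actn3 lay between -1.51 and 0.63 in paw, and between -3.60 and -1.92 in DRG. In cord Actn3 measured 10.99, 9.80 and 7.38 CPM at day 1 and 6.77, 16.7 and 40.0 CPM at day 6. In cord Actn2 measured 6.01, 5.87 and 5.002 CPM at day 1 and 4.60, 5.38 and 9.24 CPM at day 6.

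Promoters of the heavy chain genes are shown because these genes had unlike shares in the 3 tissues. Each stretch is the 250 bases before a RefSeq start on GRCm38.p6, with the E-box (CANNTG, read the same on both strands) and the MEF2 site in capitals:
Myh4, chr11:67237562-67237811, plus strand: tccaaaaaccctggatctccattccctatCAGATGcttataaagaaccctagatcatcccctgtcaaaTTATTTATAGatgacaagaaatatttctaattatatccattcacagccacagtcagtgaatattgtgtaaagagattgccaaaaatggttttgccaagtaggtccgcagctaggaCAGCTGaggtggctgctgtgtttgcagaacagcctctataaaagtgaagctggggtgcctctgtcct
Myh1, chr11:67199852-67200101, plus strand: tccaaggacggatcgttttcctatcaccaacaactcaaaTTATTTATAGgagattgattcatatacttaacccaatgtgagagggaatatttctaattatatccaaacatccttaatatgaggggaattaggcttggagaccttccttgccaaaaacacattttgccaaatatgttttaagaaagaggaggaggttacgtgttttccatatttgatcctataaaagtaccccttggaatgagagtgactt
Myh2, chr11:67170777-67171026, plus strand: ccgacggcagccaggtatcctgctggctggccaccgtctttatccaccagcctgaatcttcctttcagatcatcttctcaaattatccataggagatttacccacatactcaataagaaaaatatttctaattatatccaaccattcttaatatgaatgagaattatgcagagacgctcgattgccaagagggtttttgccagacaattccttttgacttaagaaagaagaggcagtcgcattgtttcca
Myh7, chr14:54994550-54994799, minus strand: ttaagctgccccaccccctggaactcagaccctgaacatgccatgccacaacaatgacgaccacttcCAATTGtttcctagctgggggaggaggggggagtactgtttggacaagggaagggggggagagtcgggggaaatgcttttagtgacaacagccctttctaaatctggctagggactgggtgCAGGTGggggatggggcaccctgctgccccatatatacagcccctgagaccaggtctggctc
Myh4 had 2 E-boxes, 1 MEF2 site and 1 CArG box, Myh1 had 1 MEF2 site and 0 E-boxes, Myh2 had 0 of each, and the start of Myh7 shown had 2 E-boxes. The 3 fast genes lie beside each other on chromosome 11. The E-box, bound by myogenic factors such as MyoD, occurred in 30 of the 36 promoters listed for the 29 members found in the table, and in 66.2% of all 32851 promoters of that length. The MEF2 site occurred in 4 of the 36 (1.69% of all promoters), the CArG box bound by SRF in 5 (1.47%), and MCAT (CATTCC on either strand) in 10 (12.6%). TATAAA on either strand occurred in 6 (12.4%) and can overlap the MEF2 site. A match says only that these letters are in the window.

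Between tissues, 36 of 38 members were higher in paw than in DRG (mean of the 3 treatment groups, edgeR quasi-likelihood test on all 24 libraries). The background for this is broad: 89.1% of all genes tested differed between the tissues, with 45% higher and 44.1% lower in paw. The members' median log2 difference was 4.35, beside 0.01 over all genes, and was 3.77 for fast, 7.08 for slow and 4.44 for the other members. The ranges overlapped, with -1.23 to 7.13 for fast, 5.35 to 7.96 for slow and 2.58 to 6.20 for the other members. The largest differences were those of Myh7, 7.96 ± 0.98 (SE, adjusted p = 5.1e-07, edgeR), Tnnt1, 7.62 ± 0.80 (5.97e-08), and Tnnc1, 7.45 ± 0.82 (1.02e-07), all slow. Their size is uncertain, since they rest on 1 to 47, 4 to 30 and 8 to 41 counts per DRG library. The smallest were those of Mybpc2, -1.23 ± 0.89 (adjusted p = 0.199, edgeR), Myh4, 1.92 ± 1.13 (0.117), and Pvalb, 2.28 ± 0.59 (0.00152), all fast. Acta1 was higher by 3.66 ± 1.05 (adjusted p = 0.00349, edgeR), Tnni2 by 4.003 ± 1.01 (0.00124) and Tnni1 by 5.35 ± 0.71 (1.19e-06). Mybpc2 and Myh4, both typical of the fastest fibres, were the 2 members that did not pass. Without DRG day 1 #1, Myh4 passed (3.43, adjusted p = 0.0111, edgeR) and Mybpc2 had an estimate of 0.16, and limma voom gave 4.24 for Myh4 (adjusted p = 0.0234) and 0.75 for Mybpc2.

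**Figure D5:**
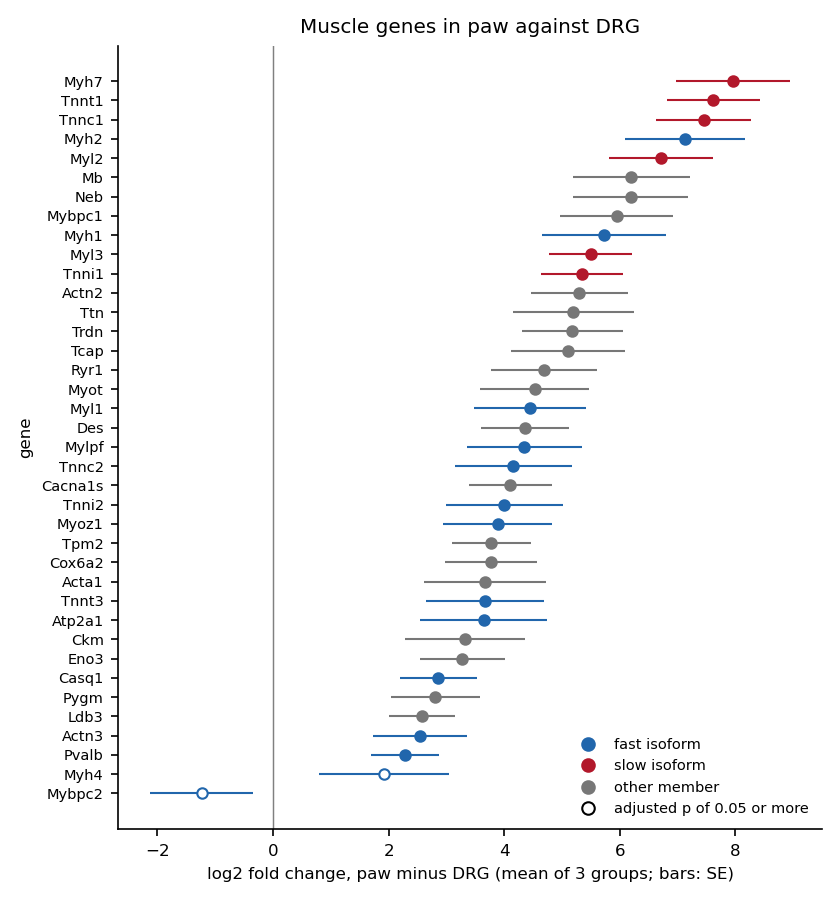
Log2 fold change of each member in paw against DRG (horizontal axis, mean of 3 treatment groups, bars are SE), sorted, with genes on the vertical axis and colours for fast, slow and other members; open circles did not pass an adjusted p of 0.05. Slow genes lie from 5.35 (Tnni1) to 7.96 (Myh7), overlapping the fast genes, of which the highest is at 7.13. Myh4 and Mybpc2 are the open circles at the bottom.

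Against cord (day 1 and day 6 only), DRG and paw gave unlike results. Of the 34 members that met the count rule in cord, 0 were higher and 3 lower in DRG than in cord (72.6% of all genes were called, 36.3% in each direction). They were Myh7, -4.40 ± 1.39 (adjusted p = 0.00891, edgeR), Tnni1, -2.57 ± 0.81 (0.00894), and Pygm, -2.39 ± 0.94 (0.0297). Myh7 did not pass under voom (adjusted p = 0.0898), and Pygm did not pass without any 1 of 4 DRG libraries (adjusted p between 0.0556 and 0.0659, edgeR) or with a replicate block within tissues (0.0728). The 4 members that missed the rule in cord were in the fit through their counts in the other tissues. Such a choice favours a difference where the other tissue is high, but does not force one between DRG and cord. Myl2, for example, averaged 0.264 and 0.209 CPM in DRG at day 1 and day 6, and 0.188 and 0.239 CPM in cord. Among these 4 only Myh2 passed, with an estimate of 3.77 ± 1.49 (adjusted p = 0.0305, edgeR). The next largest estimates among those higher in DRG were Trdn, 2.26 ± 1.34 (0.139), and Ttn, 2.17 ± 1.15 (0.0979). Neither passed with edgeR, while both did with DESeq2, Trdn at 2.21 (adjusted p = 0.0334) and Ttn at 2.13 (0.0403). Acta1 and Tnni2 had 0.99 ± 1.18 (adjusted p = 0.465, edgeR) and 0.97 ± 1.13 (0.453). Over all 38 the count depended on the method, with 4 called by edgeR, 8 by DESeq2 and 2 by limma voom. Myh2, which had 1 to 16 counts per cord library, did not pass under voom (adjusted p = 0.376) or without any 1 of 7 libraries (adjusted p between 0.0506 and 0.0808, edgeR; 0.0808 without DRG day 1 #1). Paw was higher than cord in 32 of the 34 members that met the rule in cord (88.4% of all genes were called, 44.9% higher and 43.5% lower). The largest difference among the 34 was that of Neb, 8.26 ± 1.33. Over all 38 the count was 36, but the 4 below the rule in cord entered through tissues where they were higher. A higher level in paw was thus built into their choice, and nothing is read from them. The fitted values of Myh2, 11.97 ± 1.64, and Tnnt1, 8.27 ± 1.05, were larger but rest on 1 to 16 and 6 to 13 counts per cord library, so their size is uncertain. Acta1, Tnni2 and Tnni1 were higher in paw by 5.49 ± 1.41, 5.73 ± 1.35 and 3.08 ± 0.75 (adjusted p = 0.00146, 0.00069 and 0.000993, edgeR). The members that did not pass were Mybpc2, 0.23 ± 1.08 (adjusted p = 0.846, edgeR), and Pygm, 1.03 ± 0.90 (0.285), and Pvalb came next, 2.66 ± 0.73 (0.00258).

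Some members varied little outside the paw. In DRG the highest and lowest library differed by less than 4-fold only for Tnni1 and Tnnc1. In cord, where the summed share, with Pygm and Pvalb in it, varied 3.55-fold, this held for 10 of 34 members. Pvalb, a calcium buffer of fast fibres that is also made by proprioceptive sensory neurons and by inhibitory interneurons, had the highest median level per kilobase over the libraries of DRG and of cord, although in its highest DRG library Acta1 reached 882 CPM per kb against 372 for Pvalb. It measured 133, 108 and 120.3 CPM at day 1 and 86.3, 154 and 133 CPM at day 6 in cord, and 51.9, 278 and 335 CPM in control, 387, 85.2 and 45.4 CPM at day 1 and 76.7, 64.7 and 78.0 CPM at day 6 in DRG, where it never fell below 45.4 CPM. Pygm, the glycogen phosphorylase of muscle that is also present in astrocytes, measured 277, 245 and 261 CPM at day 1 and 230.2, 303 and 256 CPM at day 6 in cord and had the second highest median there per kilobase. In DRG Pygm measured 7.74, 219.6 and 238 CPM in control, 331, 20.1 and 10.3 CPM at day 1 and 17.8, 9.11 and 32.5 CPM at day 6 and was highest in the 3 libraries rich in muscle. Ldb3, a PDZ protein of the Z-disc, measured 22.3, 20.5 and 20.0 CPM at day 1 and 18.9, 25.5 and 27.3 CPM at day 6 in cord. Eno3, the muscle enolase, measured 20.0, 15.1 and 15.4 CPM at day 1 and 15.97, 25.3 and 32.0 CPM at day 6. Casq1, the calcium store of the fast fibre's sarcoplasmic reticulum, measured 8.45, 9.56 and 7.71 CPM at day 1 and 11.1, 13.8 and 16.4 CPM at day 6 in cord. Tpm2 measured 34.6, 28.1 and 21.1 CPM at day 1 and 22.9, 44.6 and 74.7 CPM at day 6. Tpm2 and Eno3, like the muscle share, were highest in cord day 6 #3 and next highest in day 6 #2. Actn2, Myh7, Tnni1 and Tnnc1, whose values were given above, complete the 10. All 10 were within a 3.54-fold range in cord, where the other 24 members spanned more than 4-fold.

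The remaining members were also lowest in paw control #1. Atp2a1, the calcium pump of fast fibres, was among the most abundant by CPM, with 35.7, 4309 and 4088 CPM in paw control and 2.55, 842 and 1232 CPM in DRG control. The calcium release channel Ryr1, its voltage sensor Cacna1s and the junction protein Trdn ranged in paw from 7.76 to 881 CPM, from 1.76 to 366 CPM and from 2.64 to 337 CPM, and in DRG from 1.53 to 89.7 CPM, from 2.03 to 36.9 CPM and from 0.169 to 24.5 CPM. All were higher in paw than in DRG, with log2 differences of 4.69, 4.11 and 5.17. The giant filament proteins Ttn and Neb ranged from 23.0 to 3730 CPM and from 20.0 to 4054 CPM in paw. The Z-disc and intermediate filament genes Myoz1, Tcap, Myot and Des had paw maxima of 447, 1368, 450.5 and 1237 CPM and minima of 2.90, 3.06, 1.76 and 12.1 CPM, each minimum in control #1. Mb, the oxygen store of oxidative fibres, reached 3784 CPM in paw but 119.8 CPM in DRG, and its fitted log2 difference between the tissues was 6.20 ± 1.01 (adjusted p = 1.55e-05, edgeR). Cox6a2, the heart and muscle subunit of cytochrome oxidase, ranged from 0.841 to 164 CPM in paw and from 0.186 to 27.1 CPM in DRG. Per kilobase of exon, the highest paw medians were those of Acta1, Mylpf, Tnnc2, Tnnt3 and Mb, at 2685, 1822, 1753, 1463 and 1130 CPM per kb, and the lowest was that of Mybpc2, at 3.92.

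Other muscle genes outside the 38 were read in the same way. Of 29 other genes of the sarcomere, triad and muscle membrane, 0 were called in each of the 7 comparisons within tissues, and 26 were higher and 1 lower in paw than in DRG. Beside this and the counts that follow, 45% of all genes were higher and 44.1% lower in paw. The summed level of the 29 genes ranged 47.7-fold over the paw libraries, 2.89-fold over DRG and 1.74-fold over cord. Of 9 other slow-fibre genes, 6 were higher in paw than in DRG and 0 lower, and their sum varied 10.3-fold in paw and 1.21-fold in DRG. Their sum lay between 553 and 667 CPM in DRG and between 890 and 990 CPM in cord. It did not follow the muscle share in DRG, so it is no measure of slow-fibre muscle there. Of 16 genes of muscle energy supply, 10 were higher and 2 lower in paw, and nothing is read from this count beside that background. Of 10 smooth muscle genes, whose cells line vessels in all tissues, 9 were higher and 1 lower in paw, and their sum varied 2.41-fold in paw, 1.53-fold in DRG and 2.70-fold in cord. Of 6 cardiac genes, 5 could be tested, 2 were higher and 3 lower in paw than in DRG, and their sum did not exceed 10.9 CPM in paw. Keratinocyte genes varied 1.76-fold over the paw libraries, against the 130-fold of the muscle share.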

How the data were processed

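RNA was measured in 24 libraries, 3 in each of 8 groups, from about 500 ng of total RNA with a stranded mRNA kit and single reads of 50 bases, per the labels' protocols. The authors deposited whole-number counts of reads per gene. The submitters' processing notes name bcl2fastq, TopHat2, HTSeq and the mouse build mm9, and versions, annotation and strand setting are not given in the sources used here. Of each file, 5 summary lines were left out of totals, leaving 22609 genes, and 0 columns of other samples were present.

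CPM (counts per 1e6) used the total counted in genes. Each tissue was fitted alone over its groups, and tissue comparisons used all 24 libraries, with the filterByExpr filter, TMM scaling and edgeR 4.0.16 (quasi-likelihood, robust, Benjamini-Hochberg adjustment over all genes, threshold 0.05) in R 4.3.3. Alternatives were other scalings and filters, DESeq2 1.42.0, voom in limma 3.58.1, a replicate block within tissues, only the groups compared, leaving out each library and, chosen after seeing the data, a replicate block across tissues. The fitting code was tested on simulated data. Permutation tests used scipy 1.17.1. Without molecular identifiers, PCR copies are not independent molecules.

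The members and gene lists were chosen with earlier results of these data known. Values in each library are given for Acta1, Ckm, the slow and fast pairs and members varying under 4-fold in DRG or cord. Folds are given for Acta1, Tnni2, Tnni1, members past the threshold within a tissue and the 3 largest and 3 smallest of each tissue comparison; genes named beyond this were chosen after their values were seen. Sequences come from GENCODE M21 and RefSeq on GRCm38, and no coordinate was converted from mm9.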

Additional observations from a re-analysis of the deposited data

How the results depend on the processing

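Within tissues, 0 members were called under each alternative scaling, filter and tool and without each library (range 0 to 0). Members called numbered 36 to 37 in paw against DRG, 3 to 4 in DRG against cord and 35 to 36 in paw against cord when 1 library was left out. In DRG against cord (4 called), DESeq2 called 8, voom 2, and a fit of only the groups compared 7. The heavy chain difference of 1.66 ranged from 0.95 to 2.05 without 1 library and was 3.92 with Myh4 alone. Not every pair of same-numbered libraries deviated together, so the numbers were not taken to pair the samples. Correlations of their deviations were -0.693 to 0.393 between groups of paw, -0.721 to 0.227 of DRG and -0.653 to -0.204 of cord. For the same treatment in different tissues they were -0.071 to 0.554 for paw and DRG, -0.083 to 0.113 for paw and cord and -0.047 to 0.250 for DRG and cord. For paw and DRG the same-numbered pairs averaged 0.219, and pairs of other numbers averaged -0.099 (-0.507 to 0.428). Whether the numbers pair samples of these 2 tissues is therefore not settled. With a replicate block within tissues, 0 members were called within tissues, 36 in paw against DRG, 2 in DRG against cord and 35 in paw against cord. A replicate block across tissues, chosen after seeing the data, gave 37, 5 and 36, with Myh4 in paw against DRG at 2.81 (adjusted p = 0.0167, edgeR).

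Estimates that changed sign had large errors or lay near 0, and the cause was not tested. Without 1 library in turn, log2 estimates for paw day 6 against control ranged from -1.24 to 0.053 for Acta1, -0.89 to 0.094 for Tnni2 and -2.04 to 0.14 for Tnni1. For DRG day 1 against control Tnni1 ranged from -0.21 to 0.021. For DRG day 6 against day 1 the ranges were -3.91 to 0.26 for Acta1 and -3.43 to 0.32 for Tnni2, and for cord -0.17 to 0.078 for Tnni1. In paw against DRG Mybpc2 ranged from -1.44 to 0.16 and was 0.75 with voom. In paw against cord it ranged from -0.020 to 0.76. In DRG against cord, Acta1 ranged from -0.72 to 1.67 and was -0.28 with voom, and Tnni2 ranged from -0.62 to 1.45 and was -0.29 with voom. The day 6 difference of Tnni1 between paw and DRG ranged from -1.63 to 0.54, and was -0.90 with voom and -0.93 with the replicate block. None of these estimates had passed the test.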

Other observations

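Genes of the neuromuscular endplate, where the motor nerve meets the fibre, were part of the paw signal. Their 7 genes summed to between 2.83 and 190.4 CPM over the paw libraries, a 67.3-fold range, and to between 8.82 and 12.1 CPM in DRG, a 1.37-fold range. Of the 6 that could be tested, 5 were higher in paw than in DRG and 0 lower, beside 45% and 44.1% of all genes. The clearest by p was the acetylcholine receptor subunit Chrna1. Myogenic and regeneration genes, a list that includes Ncam1 and Runx1, summed to between 39.9 and 265 CPM in paw and between 279 and 331 CPM in DRG. In cord they summed to between 439 and 457 CPM. The sum varied 1.19-fold in DRG, where the muscle share varied 56.9-fold, so it is no measure of muscle there. Of these 15 genes, 9 were higher in paw than in DRG and 3 lower (edgeR), beside 45% and 44.1% of all genes.

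Genes of other tissues near muscle also varied. Tendon genes (6) summed to between 302 and 1781 CPM in paw, a 5.90-fold range, and varied 1.64-fold in DRG. Fat cell genes (7) summed to between 5.42 and 78.3 CPM in DRG, a 14.4-fold range, and varied 2.00-fold in paw. Their part in the differences between libraries was not tested.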
